A study of Mus musculus with 18 samples.

Results

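Ephb2, Immp2l, Dhrs9, Tmem171, Insyn1, Sprr1a, Smcp, AI314278 and Gm10804 are 9 of the 33235 genes measured in mouse liver. They were chosen by their log2 fold changes, because their transcripts were strongly lowered by an antisense oligonucleotide (ASO) against Mdm2 on both diets of the study, so their falls are described here and not tested. Each was found by its symbol, and all 9 were in both tables. Liver mRNA came from mice given GalNAc-Mdm2ASO or GalNAc-conASO, the control oligonucleotide, while fed HFHC or CDAHFD. The labels give the genotype of the control animals as WT and that of the treated animals as MDM2 knockdown, which is the ASO itself, and they give no age, sex, dose or duration. CDAHFD is rich in fat, lacks choline, has a defined amino acid content and induces steatohepatitis, and HFHC is given by its abbreviation alone. GalNAc is a sugar taken up through the asialoglycoprotein receptor, which steers the oligonucleotide to hepatocytes, while the RNA came from the whole liver.

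An ASO pairs with a transcript and recruits ribonuclease H to cut it. Mdm2 encodes the ubiquitin ligase that holds the transcription factor p53 low, so less Mdm2 can release p53 and alter the transcription of many genes. The sequence of the ASO was not used here, so its pairing with other transcripts was not tested. The 9 genes have unlike roles. Ephb2 is a receptor tyrosine kinase for ephrin-B ligands on neighbouring cells. Immp2l is a catalytic subunit of the inner mitochondrial membrane peptidase, which trims proteins sent to the intermembrane space. Dhrs9 is a short-chain dehydrogenase that acts on retinol and on steroids. Insyn1 is a scaffold protein of inhibitory synapses that binds the dystrophin complex. Sprr1a is a small proline-rich protein of the cornified envelope of skin, also made by injured cells. Smcp coats the mitochondria of sperm. Tmem171 encodes a membrane protein of little known role, and AI314278 and Gm10804 are long noncoding RNA models.

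The promoters of 7 of the 9 genes were read from RefSeq on GRCm38.p6, as the 250 bases before the start of each gene. 4 are printed, because they show the motifs found and how unlike the promoters of genes lowered together are. They are Sprr1a (chr3:92485882-92486131, minus strand), Dhrs9 (chr2:69380212-69380461, plus strand), Immp2l (chr12:41023840-41024089, plus strand) and Ephb2 (chr4:136836013-136836262, minus strand). Capitals mark matches, on either strand, to TATAAA and TGANTCA in Sprr1a and Dhrs9 and to GGGCGG in Immp2l.
Sprr1a promoter: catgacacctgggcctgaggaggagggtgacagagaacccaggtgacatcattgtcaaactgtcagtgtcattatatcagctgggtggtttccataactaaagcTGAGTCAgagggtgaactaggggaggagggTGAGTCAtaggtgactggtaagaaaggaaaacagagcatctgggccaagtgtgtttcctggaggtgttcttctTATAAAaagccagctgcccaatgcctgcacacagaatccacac
Dhrs9 promoter: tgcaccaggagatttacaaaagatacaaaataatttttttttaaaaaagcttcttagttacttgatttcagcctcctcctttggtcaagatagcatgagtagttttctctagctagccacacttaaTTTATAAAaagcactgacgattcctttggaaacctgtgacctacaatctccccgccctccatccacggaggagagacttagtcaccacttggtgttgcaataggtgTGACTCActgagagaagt
Immp2l promoter: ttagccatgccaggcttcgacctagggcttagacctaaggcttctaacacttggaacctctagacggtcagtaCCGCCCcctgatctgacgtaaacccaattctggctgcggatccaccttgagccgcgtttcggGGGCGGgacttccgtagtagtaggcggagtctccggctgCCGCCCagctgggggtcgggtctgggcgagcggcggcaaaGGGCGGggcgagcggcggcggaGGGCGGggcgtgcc
Ephb2 promoter: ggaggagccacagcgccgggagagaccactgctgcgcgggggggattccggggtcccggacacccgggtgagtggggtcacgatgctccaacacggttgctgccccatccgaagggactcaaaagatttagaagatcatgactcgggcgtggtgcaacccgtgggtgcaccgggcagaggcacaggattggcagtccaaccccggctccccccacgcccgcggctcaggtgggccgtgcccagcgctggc
TGANTCA, the motif that AP-1 factors bind, was found in 2 of the 7 promoters, with 2 matches in Sprr1a and 1 in Dhrs9, and in 6.75% of 32851 promoters of that length. TATAAA was in the same 2 promoters and in 12.4% of all. GGGCGG was in Immp2l, with 5 matches, in Dhrs9, with 1, and in 32.7% of all promoters. CCAAT was in Ephb2, Immp2l, Sprr1a and Gm10804 and in 33.8% of all. CACGTG (6.02% of all), TGACGTCA (1.55%), the spaced direct repeat of nuclear receptors (0.0335%) and the p53 response element (0.0639%) were in 0 of the 7. Motifs were searched on both strands, and a match describes letters, not binding. The G+C content ran from 38.0% in Smcp and 40.4% in Dhrs9 to 68.4% in Ephb2 and 73.6% in Insyn1, around a median of 52.4% over all promoters. No motif searched was shared by all 7 promoters.

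Values are read counts scaled by 1 factor per library, as deposited, and are called normalised counts below. The 18 samples gave 17 libraries, because Mdm2 ASO samples 6 and 7 on HFHC held the same value in all 33235 genes and were counted once, as library 6-7. HFHC thus had 4 control and 3 Mdm2 ASO libraries of 17.8 to 18.8 M reads, and CDAHFD had 5 and 5 of 22.4 to 31.5 M. The tables were normalised separately, so levels are compared within a diet only. Mdm2, the target, had 907, 954, 963 and 956 normalised counts in HFHC control libraries 1, 2, 4 and 5 against 420.4, 362 and 304 in Mdm2 ASO libraries 6-7, 9 and 10, which left 38.3% of the control mean. On CDAHFD it had 1443 to 1649.9 in the controls against 861, 566, 646, 564 and 598 in Mdm2 ASO libraries 6 to 10, which left 41.3%. The groups did not overlap on either diet, and library 6 on CDAHFD stood above the other treated libraries. Nothing in the labels says how the animals relate, so p-values measure the spread between these samples only.

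All 9 genes passed the threshold (limma, adjusted p under 0.05) downwards on both diets, where 13.8% of 17441 genes did on HFHC and 6.86% of 16803 on CDAHFD, with 16.8% and 6.12% upwards. That count is how they were chosen, and nothing is read from it. The median log2 fold change of the 9 was -2.92 on HFHC and -2.05 on CDAHFD, against -0.01 and -0.00 over all genes tested. Between 0 and 19.5% of the control mean was left on HFHC, and between 13.4% and 37.7% on CDAHFD. By group means, less of each transcript was left than of Mdm2 on the same diet. The genes were chosen for deep falls, so nothing is read from this. Single libraries overlapped on CDAHFD, where 15.9% to 57.1% was left of Gm10804 and 36.0% to 55.0% of Mdm2. On HFHC every Mdm2 ASO library was below every control library for 9 of 9 genes (18% of all genes tested), and on CDAHFD for 6 of 9 (5.62% of all). The exceptions on CDAHFD were Ephb2, Sprr1a and Gm10804. Log2 fold changes fitted with the pseudocount lay beyond 4-fold for 9 genes on HFHC and 7 on CDAHFD, against 0.952% and 0.357% of all genes. On HFHC this includes Smcp, whose 0 reads under the Mdm2 ASO bound its fall only at 3.30-fold, with its control reads taken as exact. The 8 genes with reads in both groups were beyond 4-fold. The HFHC median is -2.92 also with Smcp at that bound. 8 of the 9 had a value of at least 1 in every Mdm2 ASO library of a diet. Smcp, which did not, passed the filter on both diets only through the control group. In whole liver RNA, fewer cells of a type and less RNA per cell cannot be told apart.

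**Figure D1:**
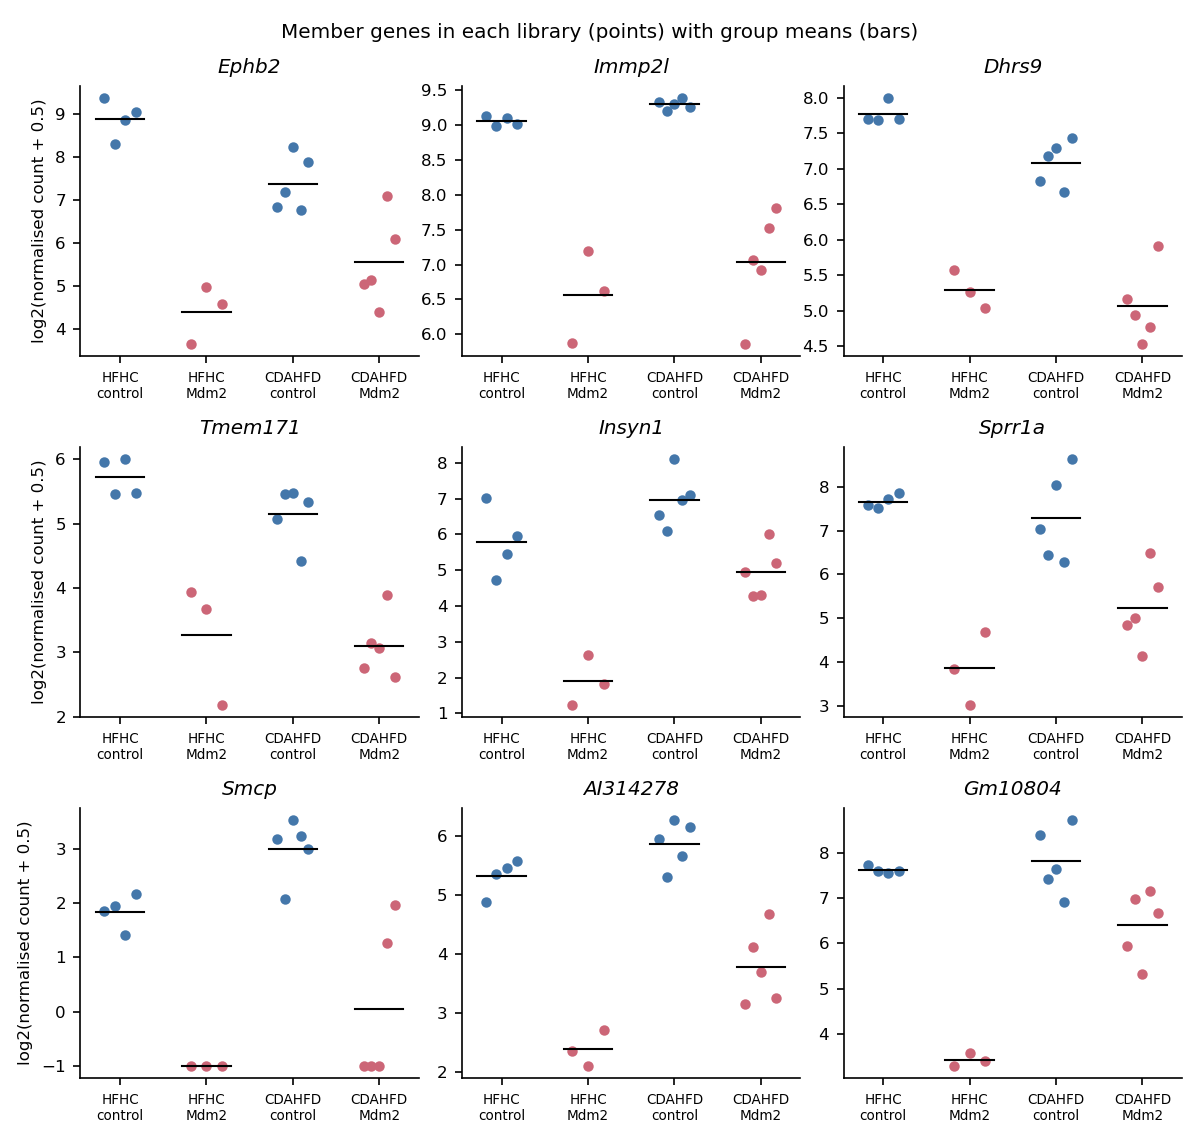
Log2(normalised count + 0.5) of each of the 9 genes in each library, by diet and ASO (blue, control; red, Mdm2 ASO); bars are group means, and each panel has its own axis. On HFHC the groups are apart in all 9 panels, and on CDAHFD they overlap for Ephb2, Sprr1a and Gm10804.

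Among 16333 genes tested on both diets, 462 fell on both, the 9 among them. Ranked by the smaller of the 2 falls, Smcp was first, Immp2l 3rd, AI314278 6th, Tmem171 8th, Sprr1a 9th, Dhrs9 10th, Insyn1 11th, Ephb2 16th and Gm10804 48th. Ranks between them were held by other genes, most of them with few reads or with no call on 1 of the diets. Gm19510, ranked 2nd, went from a mean of 10.2 to 0.652 normalised counts on HFHC and from 7.47 to 1.55 on CDAHFD. Gm35546, a gene model ranked 5th, went from 92.2 to 1.30 and from 171 to 42.9. Mir6358, a microRNA gene ranked 7th, went from 18.7 to 1.01 and from 38.3 to 11.3. Wfdc16 (ranked 4th) and Guca2b (13th) had 0 in the HFHC Mdm2 ASO libraries and control means of 2.86 and 2.14. Rbm24, an RNA-binding protein ranked 12th, went from 34.5 to 2.61 on HFHC and from 79.3 to 15.8 on CDAHFD, where it did not pass. Gml, Trim67 and Rab42, ranked 14th, 15th and 18th, had control means between 2.86 and 6.74. Fa2h, the fatty acid 2-hydroxylase ranked 17th, went from 21.9 to 5.31 and from 18.3 to 5.18. The 9 genes are therefore not the full set of strong falls on both diets.

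**Figure D2:**
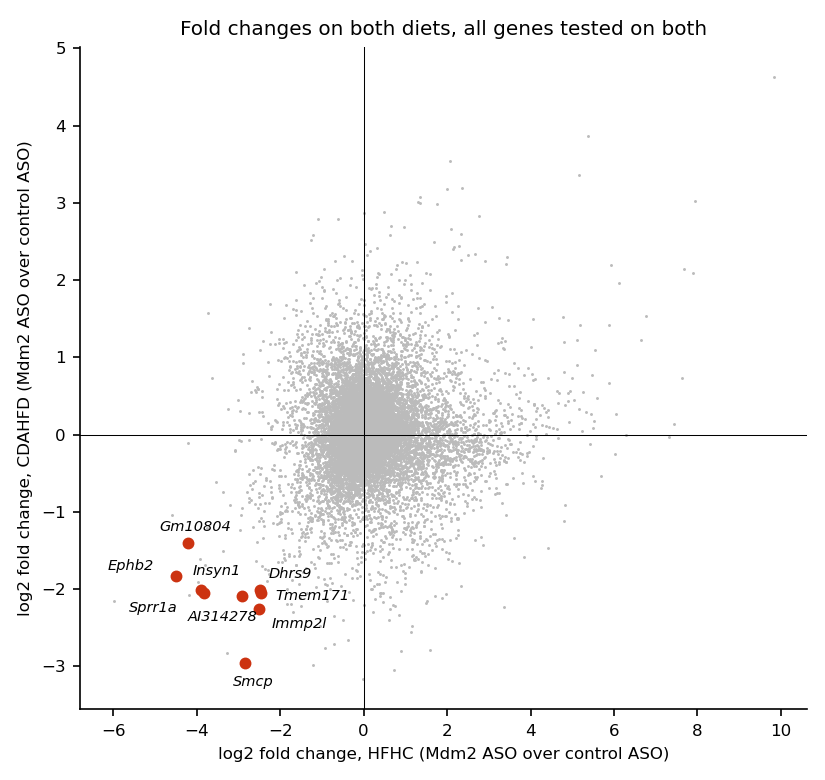
Log2 fold change of the Mdm2 ASO over the control ASO on HFHC (x axis) and on CDAHFD (y axis) for the 16333 genes tested on both diets (grey), with the 9 genes in red. The 9 lie at the lower left, between -4.49 and -2.46 on HFHC and between -2.95 and -1.41 on CDAHFD.

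Immp2l, the mitochondrial peptidase subunit, was steady among the control animals of both diets. On HFHC it had 563, 505, 550.1 and 517 normalised counts in control libraries 1, 2, 4 and 5 and 58.3, 146 and 98.0 in Mdm2 ASO libraries 6-7, 9 and 10. On CDAHFD it had 645, 591, 633, 668 and 610.4 in control libraries 1 to 5 and 57.6, 134, 120.2, 184 and 225 in Mdm2 ASO libraries 6 to 10. The coefficient of variation over control libraries was 5.08% and 4.75%, against 43.4% and 44.3% over Mdm2 ASO libraries. The lowest control library was 3.47 times the highest Mdm2 ASO library on HFHC and 2.63 times on CDAHFD. The log2 fold change was -2.50 on HFHC and -2.26 on CDAHFD, with 18.9% and 22.9% left. Its levels were thus tight under the control ASO and spread under the Mdm2 ASO on both diets.

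The order of Immp2l among treated libraries was not that of Mdm2. The library with the most Mdm2 left, 6-7 on HFHC at 44.5% and 6 on CDAHFD at 55.0% of the control mean, had the least Immp2l left, at 10.9% and 9.15%. Over all 17 libraries, the deviations of the 2 genes from their group means had r = -0.75 (permutation p = 0.0526, adjusted over 45 pairs 0.317) and Spearman rho = -0.53 (permutation p = 0.0799, adjusted 0.300). Without the 2 libraries farthest from the median, r was -0.54, and within the diets it was -0.53 on HFHC and -0.84 on CDAHFD. The relation did not pass. None of the other 8 genes had a relation to Mdm2 that passed either, with r from -0.51 for AI314278 to 0.21 for Dhrs9.

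Immp2l is also the longest of the 9. Its span of 931528 bases in the GRCm38.p6 RefSeq table exceeds that of 99.7% of 21900 protein-coding genes. Ephb2 spans 188791 bases, more than 95.1% of them. Dhrs9, Gm10804 and Insyn1 span 22625, 17056 and 11178 bases, and Tmem171, AI314278, Smcp and Sprr1a span 9419, 5772, 5208 and 1928. The 9 lie on 7 chromosomes (2, 3, 4, 7, 9, 12 and 13), and length was not shared among them. Lrrn3, a leucine-rich repeat gene nested within Immp2l, did not pass on either diet, with log2 fold changes of 0.46 (limma, adjusted p = 0.280) and -0.19 (adjusted p = 0.824).

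Partner and substrate genes of the peptidase were read from a list of 16 mitochondrial proteases and substrates, all tested. On HFHC 7 fell and 1 rose, with a median log2 fold change of -0.31, and on CDAHFD 2 fell and 2 rose, with a median of -0.07. Without Mdm2 ASO library 9 the HFHC count of falls was 3, and without control library 3 the CDAHFD count was 4. The CDAHFD rises were 1 without Mdm2 ASO library 6 or 8. Immp1l, the other catalytic subunit, went from 272 ± 14.7 (SD, n = 4) to 232 ± 6.03 (n = 3) on HFHC and from 426 ± 32.5 to 464 ± 28.2 (n = 5 and 5) on CDAHFD, with limma adjusted p = 0.0838 and 0.391. Gpd2, the mitochondrial glycerol-3-phosphate dehydrogenase trimmed by the peptidase, fell on both diets, with log2 fold changes of -0.43 and -0.75 (limma, adjusted p = 0.0142 and 0.0117). Spg7 and Afg3l2, subunits of an inner membrane protease, fell on HFHC, with -0.53 and -0.33 (limma, adjusted p = 0.0028 and 0.0079). Htra2, a protease of the intermembrane space, rose by 0.40 on HFHC (adjusted p = 0.0058). Clpx, the unfoldase of the matrix protease, fell on both diets, with -0.78 on HFHC and -1.27 on CDAHFD (limma, adjusted p = 0.0375 and 0.0018). The 13 transcripts encoded in mitochondrial DNA moved on HFHC too, where 10 fell, 0 rose and the summed level went from a range of 1228740 to 1506260 normalised counts to one of 662299 to 774013. On CDAHFD 0 of them fell and 1 rose, or 3 without Mdm2 ASO library 6. Their part in the Immp2l result was not tested.

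**Figure D3:**
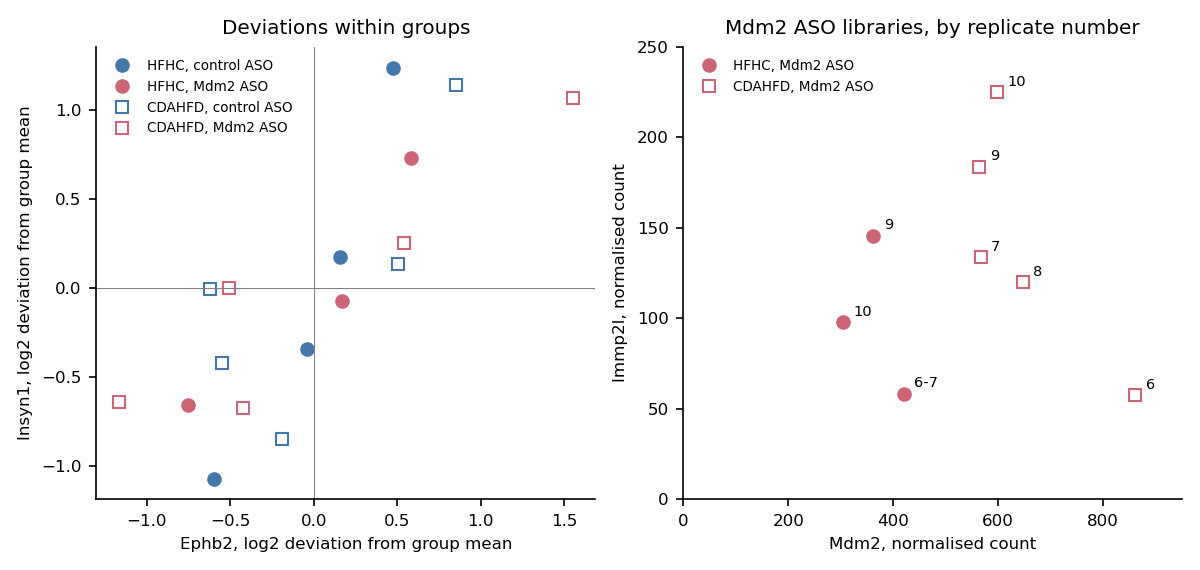
Left, log2 deviation from the group mean of Ephb2 (x axis) and Insyn1 (y axis) in each of the 17 libraries, by diet and ASO; right, normalised counts of Mdm2 (x axis) and Immp2l (y axis) in each Mdm2 ASO library, numbered by replicate. On the left the points rise together (r = 0.81), and on the right libraries 6-7 and 6 have the most Mdm2 and the least Immp2l of their diet.

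Ephb2, the ephrin-B receptor, had the lowest share left on HFHC among the 8 genes with reads in both groups. Its normalised counts there were 659.6, 313, 462 and 529.7 in control libraries 1, 2, 4 and 5 and 12.0, 31.2 and 23.2 in Mdm2 ASO libraries 6-7, 9 and 10. On CDAHFD they were 114, 146, 301, 108 and 236 in control libraries 1 to 5 and 32.5, 34.5, 20.4, 137 and 67.9 in Mdm2 ASO libraries 6 to 10. The HFHC groups were 10.0-fold apart at their nearest libraries, while on CDAHFD library 9 lay above controls 1 and 4. The mean left was 4.51% on HFHC (log2 fold change -4.49) and 32.3% on CDAHFD (-1.83, or -2.22 without library 9).

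Among the other Eph receptors and their ephrin ligands, the genes that fell did so by less than 1 on the log2 scale. Of 21 listed genes 17 were tested on HFHC, where 3 rose and 2 fell, with a median of -0.25, and 15 on CDAHFD, where 2 rose and 1 fell, with a median of 0.07. Efnb1, an ephrin-B ligand, fell by 0.45 on HFHC (limma, adjusted p = 0.0026) and by 0.42 on CDAHFD (adjusted p = 0.0181, lost without control library 2). Epha1, an ephrin-A receptor abundant in liver, fell by 0.59 on HFHC (adjusted p = 0.0010). Efna1, an ephrin-A ligand, rose from 1144 ± 366 (SD, n = 4) to 4126 ± 1498 (n = 3) on HFHC, a log2 fold change of 1.83 (adjusted p = 0.0010). On CDAHFD its log2 fold change was 1.13 (adjusted p = 0.0367), which did not pass with edgeR, with DESeq2 or without any of 7 single libraries. Epha4, another receptor, rose on HFHC from 6.56 ± 1.26 to 26.0 ± 5.07 normalised counts (log2 fold change 1.91, adjusted p = 0.0016). Ephb4, an EphB receptor like Ephb2, rose by 0.33 on HFHC (limma, adjusted p = 0.0124) and by 0.27 on CDAHFD (adjusted p = 0.0417). Its direction was opposite to that of Ephb2 on both diets. Under quantile normalisation 6 genes of the list fell on HFHC, and without single libraries the CDAHFD counts were 0 to 2 rises and 0 to 3 falls.

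Insyn1, the synaptic scaffold gene, was the most variable of the 9 among HFHC controls. Its normalised counts on HFHC were 130.1, 25.8, 43.1 and 62.0 in control libraries 1, 2, 4 and 5 and 1.85, 5.67 and 3.03 in Mdm2 ASO libraries 6-7, 9 and 10, the latter from 11 reads in all. On CDAHFD they were 92.3, 68.4, 273, 123 and 136 in control libraries 1 to 5 and 30.4, 18.8, 19.3, 64.1 and 36.2 in Mdm2 ASO libraries 6 to 10. The control coefficient of variation was 70.0% on HFHC and 57.6% on CDAHFD. The groups did not overlap, although on CDAHFD library 9 was within 1.07-fold of control 2. The log2 fold change was -3.90 and -2.01, with 5.39% and 24.4% left.

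The highest and lowest libraries for Insyn1 tended to be those for Ephb2. Control library 1 was highest and library 2 lowest for both genes on HFHC, and control 3 and Mdm2 ASO library 9 were highest in their groups for both on CDAHFD. The lowest CDAHFD libraries differed: control 4 and Mdm2 ASO library 8 for Ephb2, control 2 and Mdm2 ASO library 7 for Insyn1. Deviations from group means, which the choice of the genes did not use, had r = 0.81 over 17 libraries (permutation p = 8e-05, adjusted over 45 pairs 0.0036) and rho = 0.77 (permutation p = 0.000910, adjusted 0.0409). The value was 0.79 without the 2 libraries farthest from the median, 0.90 on HFHC and 0.83 on CDAHFD. It was the only one of 36 pairs among the 9 genes that passed. The next largest were Ephb2 with Sprr1a (r = 0.70, permutation p = 0.0115, adjusted 0.258) and Sprr1a with Gm10804 (r = 0.68, permutation p = 0.0277, adjusted 0.286). Over the 36 pairs r ran from -0.29 to 0.81, with a median of 0.34. Most pairs thus did not pass, which with 17 libraries does not show that the genes varied apart. On CDAHFD, Mdm2 ASO library 9 was the highest treated library for Ephb2, Tmem171, Insyn1, Sprr1a, AI314278 and Gm10804. For Immp2l, Dhrs9 and Smcp the highest was library 10.

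Of 19 listed genes of inhibitory synapses and the dystroglycan complex, 17 were tested on HFHC, where 4 fell and 1 rose, with a median of -0.19. On CDAHFD 3 of 16 fell and 0 rose, with a median of -0.01, and without any of 7 single libraries the count of falls was 1. On HFHC the rise was lost without Mdm2 ASO library 9 or 10. Dag1, dystroglycan itself, fell on both diets, with a log2 fold change of -0.40 from 1799 ± 48.4 (SD, n = 4) to 1369 ± 74.4 (n = 3) on HFHC and of -0.63 from 1773 ± 251 to 1142 ± 70.3 (n = 5 and 5) on CDAHFD (limma, adjusted p = 0.0021 and 0.0015). Sntb1, a syntrophin, fell by 0.33 on HFHC (adjusted p = 0.0083).

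Dhrs9, the retinol dehydrogenase, had the smallest standard error among the protein-coding genes of the set on HFHC. Its normalised counts were 207, 205, 255 and 207 in HFHC control libraries 1, 2, 4 and 5 and 47.2, 37.8 and 32.3 in Mdm2 ASO libraries 6-7, 9 and 10. On CDAHFD they were 114, 145, 157, 102 and 172 in control libraries 1 to 5 and 35.6, 30.4, 22.7, 26.8 and 59.9 in Mdm2 ASO libraries 6 to 10. No treated library reached a control on either diet, and library 10 was the highest treated one on CDAHFD. The log2 fold change was -2.48 on HFHC (SE 0.16, 17.9% left) and -2.02 on CDAHFD (SE 0.26, 25.4% left).

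Of 37 listed genes of retinoid metabolism 33 were tested, and on HFHC 11 fell and 5 rose, with a median of -0.25. On CDAHFD 4 fell and 3 rose, with a median of -0.05. Single libraries moved these counts: without control 4 the HFHC falls were 7, without Mdm2 ASO library 9 the HFHC rises were 2, without control 2 the CDAHFD falls were 2, and quantile normalisation gave 17 falls on HFHC. Dhrs3, which reduces retinal to retinol, fell by 0.56 on HFHC (limma, adjusted p = 0.00034). Rdh10, which oxidises retinol, fell by 0.53 on HFHC (adjusted p = 0.0041) and by 0.36 on CDAHFD (adjusted p = 0.0251). Aldh1a7, of the retinal dehydrogenase family, fell on both diets, with -0.95 and -0.52 (adjusted p = 0.0086 and 0.0047). Hsd17b6, a retinol and steroid dehydrogenase, fell by 1.01 on HFHC (adjusted p = 0.0073), and Rdh9 fell by 0.99 on CDAHFD (adjusted p = 0.0015). Lrat, which esterifies retinol in stellate cells, rose by 0.86 on HFHC (adjusted p = 0.0025). Cyp26a1, which degrades retinoic acid, rose on both diets. On HFHC it went from 92.0 ± 29.7 to 286 ± 166 (SD, n = 4 and 3), a log2 fold change of 1.44 (adjusted p = 0.0412). On CDAHFD it went from 783 ± 341 to 2394 ± 659 (SD, n = 5 and 5), a log2 fold change of 1.69 (adjusted p = 0.0015). Rdh5 rose there by 0.62 (adjusted p = 0.0060). In the listed genes that moved, no log2 fall was as large as that of Dhrs9. Dhrs9 was chosen for its deep fall, so nothing is read from this.

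**Figure D4:**
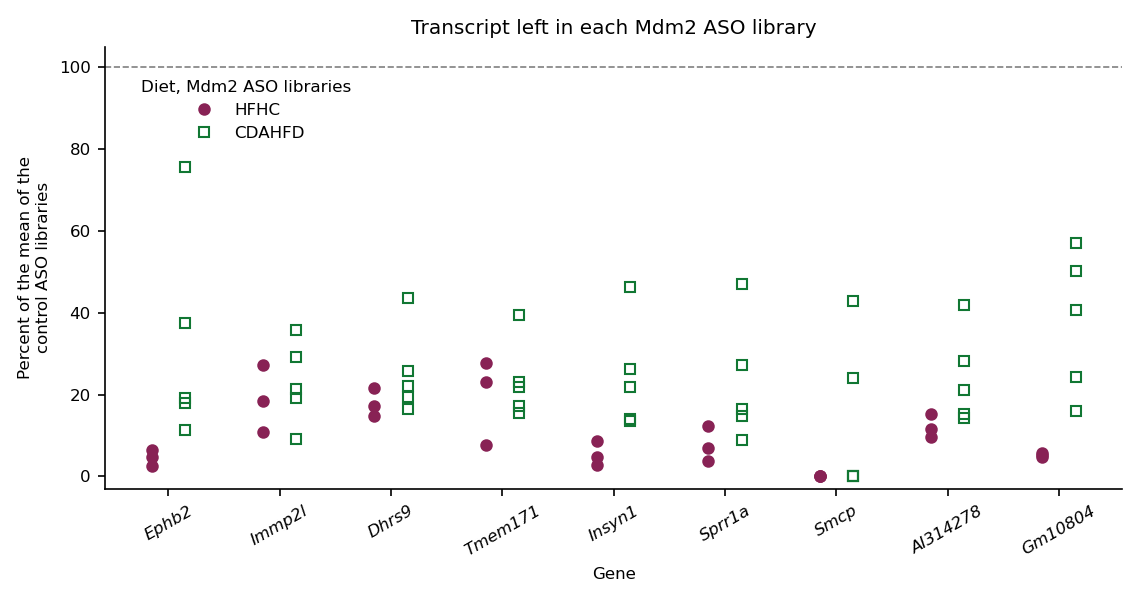
Normalised count of each gene (x axis) in each Mdm2 ASO library as a percent of the mean of the control ASO libraries of that diet (y axis; filled circles, HFHC; open squares, CDAHFD; the dashed line is 100%). All HFHC libraries lie between 0 and 27.8%, and the CDAHFD libraries between 0 and 75.6%, the highest being Ephb2 in library 9.

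Sprr1a and Smcp lie in 1 cluster of skin genes on chromosome 3, with Sprr4 and Ivl between them. Sprr1a, the envelope precursor, had 191, 182, 210.3 and 232 normalised counts in HFHC control libraries 1, 2, 4 and 5 and 13.9, 7.57 and 25.3 in Mdm2 ASO libraries 6-7, 9 and 10. On CDAHFD it had 132, 86.9, 262, 77.3 and 397 in control libraries 1 to 5 and 28.3, 31.4, 17.0, 89.98 and 52.0 in Mdm2 ASO libraries 6 to 10. The HFHC groups were apart, and on CDAHFD library 9 lay above controls 2 and 4. The log2 fold change was -3.82 and -2.05, with 7.64% and 22.9% left.

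Smcp, the sperm mitochondrial gene, was close to the limit of detection. HFHC control libraries held 3, 3, 2 and 4 reads, and the 3 Mdm2 ASO libraries held 0. The 12 reads against 0 put Smcp at least 3.30-fold lower if a count of 0 is taken as up to 3 reads over the group. This takes the 12 control reads as exact, and their counting error would lower the bound. CDAHFD control libraries held 8, 4, 12, 11 and 8 reads and Mdm2 ASO libraries 6 to 10 held 0, 0, 0, 2 and 3. With library scaling, the controls had 7.50 times as many as the Mdm2 ASO libraries (43 against 5 reads, exact 95% interval 2.98 to 24.3, counting error only). The rank of Smcp in the order of falls thus rests on few reads.

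The other genes of the cornified envelope were mostly too low to test. Of 32 listed, 7 were tested on HFHC, where 5 fell and 0 rose, with a median of -1.02, and 6 on CDAHFD, where 0 fell and 1 rose, with a median of 0.37. Without single libraries the HFHC falls were between 2 and 5, at 2 without control 1 or 5 or Mdm2 ASO library 9 or 10 and at 3 without control 4 or Mdm2 ASO library 6-7. The CDAHFD rises were between 0 and 2 and changed with 9 of the 10 libraries left out in turn, and the HFHC rises were 1 without Mdm2 ASO library 10. Ppl, periplakin of cell junctions, fell by 0.87 on HFHC (limma, adjusted p = 0.0072) from 953 ± 170 (SD, n = 4) to 528 ± 144 (n = 3), and Sprr2b fell by 2.58 (adjusted p = 0.0068) from a range of 4.13 to 7.99 to one of 0 to 1.01. Ivl, involucrin, between Sprr1a and Smcp, went from 3.63 ± 1.88 to 0.309 ± 0.535 on HFHC (log2 fold change -2.39, adjusted p = 0.0252), a call lost with DESeq2 and without 5 of the 7 single libraries. On CDAHFD it had -1.18 (adjusted p = 0.133). Sprr2b and Ivl, at most 1.01 and 0.926 in HFHC Mdm2 ASO libraries, passed the filter on HFHC only through the control group. They could thus enter the HFHC count and median of the list as falls but not as rises. Sprr1b, Sprr3, Sprr4 and Lce1a1 were at 0 in all 17 libraries. Of the 6 keratinocyte markers the only 1 tested on HFHC fell, and 0 of 2 tested passed on CDAHFD. The level of all 6 was 46.0 to 54.0 in HFHC controls and 24.2 to 32.4 under the Mdm2 ASO, and 50.4 to 80.7 and 55.5 to 114 on CDAHFD. Krt1 and Dsg3 were at 0 in both HFHC groups, and Krt14 was at 0 in both control groups. Of 17 listed sperm and testis genes 5 were tested on HFHC, where 1 fell, Gpx4, a selenoperoxidase of all tissues that also forms the capsule of sperm mitochondria (log2 fold change -1.04, adjusted p = 0.0016), and 3 on CDAHFD, where 0 passed.

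Gm10804, a noncoding RNA model, showed the sharpest separation on HFHC. Its normalised counts there were 210.6, 194, 188 and 193 in control libraries 1, 2, 4 and 5 and 9.26, 11.3 and 10.1 in Mdm2 ASO libraries 6-7, 9 and 10, with the lowest control 16.5 times the highest treated library. On CDAHFD they were 337, 172, 198, 121 and 422 in control libraries 1 to 5 and 60.7, 126, 39.7, 143 and 102 in Mdm2 ASO libraries 6 to 10. There the groups overlapped, with treated libraries 7 and 9 above control 4. The control coefficient of variation was 5.04% on HFHC and 49.99% on CDAHFD. The log2 fold change was -4.20 and -1.41, with 5.21% and 37.7% left, so the set's highest share left on CDAHFD was that of Gm10804.

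Gm10804 overlaps Cd82, a tetraspanin gene on the opposite strand. The library kit is strand-specific per the labels, and whether strand was used in counting is not given in the sources used here. Without strand, reads of the 2 genes over shared bases cannot be told apart. Cd82 had 1876 ± 123 (SD, n = 4) normalised counts in HFHC controls and 1393 ± 202 (n = 3) under the Mdm2 ASO, a log2 fold change of -0.44 (limma, adjusted p = 0.0120). On CDAHFD it had 2384 ± 140 and 2116 ± 260 (n = 5 and 5), a log2 fold change of -0.18 (adjusted p = 0.203). The fall of Gm10804 on HFHC was thus far deeper than that of the gene it overlaps.

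AI314278, the other noncoding RNA, ranged from 28.9 to 47.0 normalised counts in HFHC controls and from 3.78 to 6.06 under the Mdm2 ASO, the latter from 15 reads. On CDAHFD it ranged from 38.8 to 76.1 and from 8.38 to 24.9. Tmem171, the membrane protein gene, ranged from 43.8 to 63.6 in HFHC controls and from 4.04 to 14.8 under the Mdm2 ASO. On CDAHFD it ranged from 20.9 to 44.0 and from 5.66 to 14.4. Neither gene's groups overlapped on either diet. The log2 fold changes were -2.92 and -2.09 for AI314278 and -2.46 and -2.06 for Tmem171, with 12.1% and 24.2%, and 19.5% and 23.4%, left.

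Genes beside the 9 did not move with them as a group. The 2 nearest named coding genes on each side, and those overlapping, came to 36, of which 25 were tested on each diet. On HFHC 6 rose and 4 fell, with a median of -0.00, and on CDAHFD 0 rose and 3 fell, with a median of -0.18. The HFHC falls include Ivl, which passed the filter there only through the control group. Without control 1 or 5 or Mdm2 ASO library 9 the HFHC falls were 2, and quantile normalisation gave 10. C1qb and C1qc, complement genes of macrophages beside Ephb2, rose on HFHC by 2.36 and 2.22 on the log2 scale (limma, adjusted p = 6.7e-07 and 8.28e-06), opposite to Ephb2. Abcb11, the bile salt export pump beside Dhrs9, fell by 0.78 on HFHC (adjusted p = 0.0044). Trp53i11, a p53-inducible gene beside Gm10804, rose on HFHC by 0.79 (adjusted p = 0.00096). Nptn, the neuroplastin gene beside Insyn1, rose by 0.30 on HFHC (adjusted p = 0.0096) and fell by 0.58 on CDAHFD (adjusted p = 0.00062). Tnpo1, a nuclear import receptor beside Tmem171, fell by 0.35 on CDAHFD (adjusted p = 0.0132). Beside Immp2l, Dock4 (0.42, adjusted p = 0.0173) and Dnajb9 (-0.36, adjusted p = 0.0430) passed on HFHC, as did Tspan18 beside Gm10804 (0.89, adjusted p = 0.0121), and Cd276 beside Insyn1 passed on CDAHFD (-0.93, adjusted p = 0.0448). Each of these 4 calls was lost without 1 or more single libraries. Beside AI314278, 0 of 4 neighbours passed on either diet by limma.

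**Figure D5:**
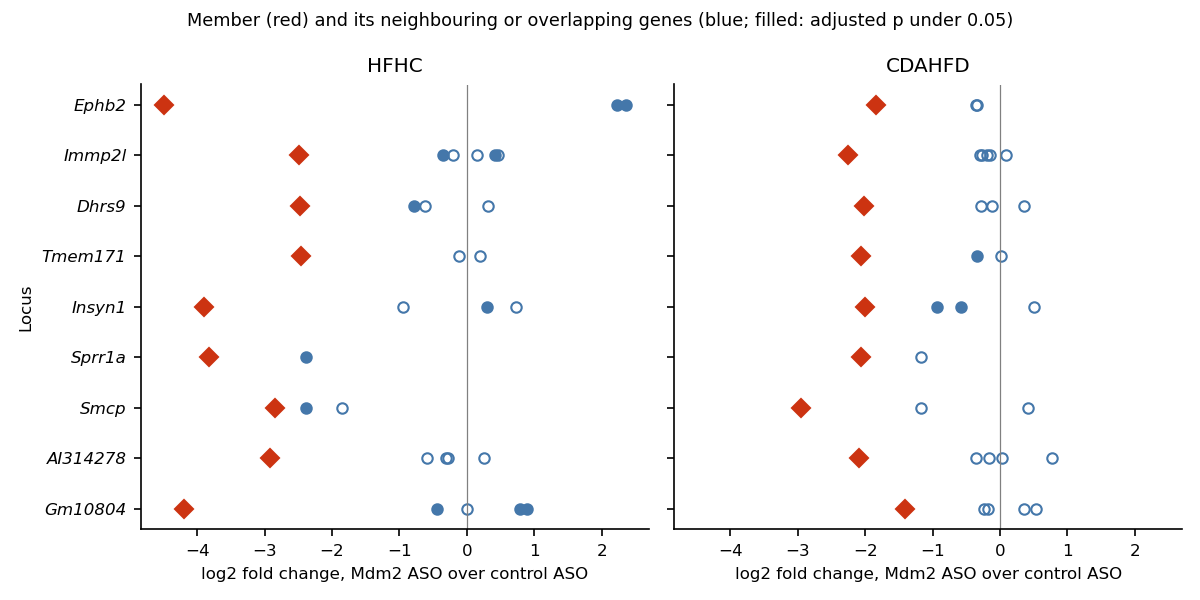
Log2 fold change (x axis) of each of the 9 genes (red diamonds) and of the tested named coding genes beside or overlapping it (blue circles, filled where the adjusted p was under 0.05), by locus, on HFHC and CDAHFD. Each red diamond lies to the left of all blue circles of its row, and Ivl appears in the rows of both Sprr1a and Smcp.

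For 8 of the 9 genes (Smcp was too low), the 3 genes most alike in their deviations from group means were found among 10850 genes over the 17 libraries. These are the highest of many correlations and carry no test. Insyn1 was most like Plekhn1 (r = 0.93), Loxl1 (0.93) and Itga8 (0.93). Loxl1, a lysyl oxidase of elastic fibres, is also 1 of the neighbours of Insyn1, and it did not pass on HFHC (log2 fold change -0.95, limma adjusted p = 0.100) or on CDAHFD (0.51, adjusted p = 0.168). Ephb2 was most like Rcn3 (0.91), Myl12a (0.91) and the membrane metalloprotease Mmp15 (0.90). The 3 genes most like Dhrs9 included Tex10 (0.87) and Ccnh (0.84). Immp2l was most like the corepressor Tle3 (0.87), and Gm10804 most like Tmem176b (0.87) and the lipid droplet gene Plin4 (0.85). Sprr1a was most like Alg2 (0.83), AI314278 most like Ssr1 (0.83) and Tmem171 most like Crlf3 (0.80), the third on its list being Epha1, of the receptor family of Ephb2 (0.77). Plin4 had log2 fold changes of -0.99 on HFHC and -0.86 on CDAHFD, and Rcn3 had -0.05 and 0.13.

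Markers of liver cell types moved on HFHC. Of 12 cholangiocyte markers 8 fell and 0 rose, with a median of -1.48, and their summed level was between 4248 and 12427 normalised counts in controls and between 2409 and 3239 under the Mdm2 ASO. That count was 5 without control 5 or Mdm2 ASO library 10. Of 10 markers each of sinusoidal endothelium, of stellate cells and of monocytes and neutrophils, 7 rose and 0 fell. The summed endothelial level was between 5283 and 5816 normalised counts in controls and between 8318 and 9190.4 under the Mdm2 ASO. The stellate sum was between 8678 and 11866 in controls and between 15760.4 and 17362 under the Mdm2 ASO. The sum for monocytes and neutrophils was between 3986 and 5942 and between 6141 and 7169.9. Of 8 Kupffer cell markers 3 rose, with sums of 5963 to 9868 and of 12369 to 16234, and 4 of 6 B cell, 3 of 7 T and NK cell and 6 of 6 red cell markers rose. The T and NK cell count was 1 without Mdm2 ASO library 9. Of 9 pancreas and intestine markers 4 were tested and 2 fell, a count of 0 or 1 without any single library. On CDAHFD 0 of 12 cholangiocyte markers passed, with a median of 1.04 and sums of 4244 to 12278 and of 7409 to 12585, and 6 rose without control 3. In the other lists on CDAHFD 1 endothelial, 1 stellate, 1 B cell and 1 intestinal marker rose, 1 Kupffer cell marker and 1 of monocytes and neutrophils fell, and 0 of T and NK cells or red cells passed. Without single libraries the CDAHFD rises were 0 to 4 for endothelium, 0 to 2 for B cells, 1 to 2 for stellate cells and 0 to 1 for red cells, and the Kupffer cell falls were 0 to 2. Of 10 hepatocyte markers 0 passed on HFHC and 1 rose on CDAHFD, and no hepatocyte, cholangiocyte, endothelial, stellate or Kupffer cell marker was at 0 throughout a group. The part of these markers in the falls of the 9 genes was not tested.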

How the data were processed

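Alignment used STAR 2.7.10b on GRCm39 and gene counting used Subread's featureCounts (2.0.3), per the submitters' processing notes. The deposited tables hold TMM-normalised counts per the labels, and were handled as a signal: in each library the authors' values were whole reads times 1 constant (at least 99.997% within 0.001 of a whole read). The 2 tables had 0 columns outside the series. Identical columns were counted once, which was decided after the values were seen.

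Per diet, limma-trend was run on log2(value + 0.5) for genes that reached 1 in a number of libraries equal to the smaller group's size, and calls had a Benjamini-Hochberg adjusted p below 0.05. The alternatives were another pseudocount, no filter, other scalings, edgeR and DESeq2 on the recovered reads, single libraries left out and the identical columns counted apart. The fit was tested on simulated data. Fold changes are on that log2 scale, which understates those of low genes. The members and gene lists were chosen with earlier results of these data known. Named genes are the 9 and Mdm2, the called genes of 6 family lists, the 2 nearest named coding genes on each side, the 10 other genes with the largest smaller fall and, for members with a control mean of at least 20 on each diet, the 3 most alike genes (means of at least 50). The text names a part of these, with Immp1l, Lrrn3 and the listed genes at 0 added after their values were seen. Pairs were compared by the permutation of deviations within groups (100000 permutations, 45 pairs, two-sided), chosen after the data were seen. Names, spans and promoters came from RefSeq on GRCm38.p6 and the Cd82 overlap from GENCODE M21 on GRCm38, another build than the files', so no positions but those of the promoters are given. Intervals cover counting error only, since copies made by PCR are not independent molecules. Software was limma 3.58.1, DESeq2 1.42.0 and edgeR 4.0.16 under R 4.3.3, with Python 3.11.15.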

Additional observations from a re-analysis of the deposited data

Results flagged for a closer look

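Among 30 groups of 4 or 5 libraries examined, in the 9 genes and Mdm2, 3 held a library far from the others, and chance gives about 1 in 20. Dhrs9 stood high in HFHC control library 4, at 255 normalised counts. Mdm2 stood low in HFHC control library 1, at 907, and high in CDAHFD Mdm2 ASO library 6, at 861.

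Of the family and neighbour genes, 2 moved in opposite directions on the 2 diets in every library, and the difference between diets was not tested. Clpp, the matrix protease subunit, had log2 fold changes of -0.39 on HFHC and 0.42 on CDAHFD, and the HFHC call was lost without control library 4 or Mdm2 ASO library 9. Nptn, beside Insyn1, had 0.30 on HFHC and -0.58 on CDAHFD. Dhrs7b, of the retinoid list, also passed in opposite directions (limma), with -0.60 on HFHC (adjusted p = 0.0123) and 0.40 on CDAHFD (adjusted p = 0.0237). Its CDAHFD groups overlapped, with a highest control of 916 and a lowest Mdm2 ASO library of 913.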

How the results depend on the processing

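The log2 fold changes of the 9 genes kept their direction under every alternative run (14 on HFHC, 16 on CDAHFD). They moved by more than 1 SD for Dhrs9 and Gm10804 on HFHC under quantile normalisation (to -2.72 and -4.42) and for Smcp on HFHC under pseudocount 1, edgeR and DESeq2 (between -4.70 and -2.04). Quantile normalisation gave 3725 falls on HFHC against 2399, with 40.0% of calls upwards against 55.0% and a shift of -0.11 in the median of all genes. Without single libraries HFHC had 2132 to 2805 rises (2932 with all) and 1552 to 2331 falls, the lowest without Mdm2 ASO replicate 9. CDAHFD had 557 to 1090 rises (1028) and 675 to 1193 falls (1153), with 557 and 675 without control replicate 2, and 629 rises without Mdm2 ASO replicate 8. Of the named called genes outside the 9 (50 on HFHC, 22 on CDAHFD), 88 of 700 and 61 of 352 values lost the call and 0 reversed. No paired analysis was possible because control and Mdm2 ASO samples share no replicate numbers. Smcp, Insyn1 and AI314278 had 0, 11 and 15 reads over the HFHC Mdm2 ASO libraries, which limits the precision of their shares left.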
